A study of Mus musculus with 16 samples.

Results

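The interferon-inducible GTPases of 2 mouse families were followed in liver RNA sequencing: the guanylate-binding proteins (GBPs) Gbp2, Gbp3, Gbp5, Gbp6 and Gbp7, and the immunity-related GTPases (IRGs) Irgm1, Irgm2, Igtp, Iigp1 and Tgtp1. The 10 genes were taken by symbol from the 27288 gene rows of the table, and all 10 were among the 13256 genes that passed the filter for testing, a mean of at least 10 normalised reads over the 16 libraries. The livers came from C57BL/6 mice of 8 to 10 weeks, in 4 groups of 4 libraries. The KO ethanol and KO control groups carry the label of a knockout, in liver alone, of Dnm1l, the gene of the GTPase DRP1 that divides mitochondria, and the WT ethanol and WT control groups that of wild type. The ethanol groups went through the Gao-Binge model, in which an ethanol diet ends with a binge dose, and the control groups are called control diet here. The labels name neither the promoter that drives the deletion nor the deleted exons, and they do not say that each library came from its own mouse, so p-values speak of the spread among libraries, which may be technical.

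Both families are induced by interferons and act in cell-autonomous defence, the part of immunity that a cell carries out by itself. Interferon gamma acts on genes through gamma-activated sequences (GAS) in their promoters, while type I interferons act through interferon-stimulated response elements (ISRE). GBPs belong to the same dynamin superfamily as DRP1 and assemble on the membranes of pathogen vacuoles and on cytosolic bacteria, where they open membranes and feed inflammasomes. Among the IRGs, Irgm1, Irgm2 and Igtp (also called Irgm3) are regulators that sit on host membranes such as the Golgi, lysosomes and lipid droplets and hold the effector IRGs in an inactive state. Iigp1 (Irga6) and Tgtp1 (Irgb6) are effectors that load onto vacuoles such as that of Toxoplasma, and Iigp1 is known for a promoter of its own that keeps it on in the mouse liver without interferon.

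Depth was 11425136 to 13864862 reads per library. Total Dnm1l did not separate the groups as labelled, with 803 ± 99.3 and 743 ± 38.4 normalised reads in the KO ethanol and WT ethanol groups and 642 ± 72.7 and 663 ± 56.1 in the KO control and WT control groups (SD, n = 4 each; limma adjusted p = 0.590 on ethanol and 0.825 on control diet). A gene total cannot check a deletion of some exons, so KO names the label throughout. KO ethanol libraries 1 and 4 stand apart, with 8008 and 5289 normalised reads in the sum of 10 marker genes of pancreas, blood and fat. The other 14 libraries had 1110 to 2698. The limma comparisons that use the KO ethanol group were repeated without KO ethanol libraries 1 and 4. Levels, marker sums, overlaps between groups, correlations, counts of called genes in the lists and the tests by other tools keep them.

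The genes lie in 5 genomic places (GENCODE, GRCm38). Gbp5, Gbp7, Gbp3 and Gbp2 are neighbours on chromosome 3, between 142493978 and 142638008. Gbp6 is on chromosome 5, from 105270702 to 105293698, amid Gbp4, Gbp8, Gbp9, Gbp10 and Gbp11. Irgm1 (48861968 to 48871683) and Tgtp1 (48985327 to 48994172) share one stretch of chromosome 11, and Igtp (58199556 to 58207591) and Irgm2 (58199618 to 58222782) overlap each other in another. Iigp1 stands alone in a further place, given with its values.

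The promoters of all members with a window are shown, since GAS and ISRE letters are where interferon-activated transcription factors are known to bind. RefSeq's promoter table for GRCm38.p6 holds a window from 250 bases before to 50 bases after the start for 8 of the 10 genes, with a second window for Gbp3 that makes 9, and Gbp6 and Iigp1 have none. Searched on both strands as GAAA, any 2 bases and GAAA for the ISRE, and as TTCNNNGAA for the GAS, 8 of the 9 windows held an ISRE, 1 for each gene, and the second Gbp3 window held neither motif. A GAS was also found in 5 windows, those of Gbp5, Gbp7, Irgm2, Igtp and Tgtp1. Of all 32851 RefSeq windows, 3.44% held the ISRE letters, 8.3% the GAS letters and 0.454% both, so each is uncommon in a window taken at large. The 170 bases before each start follow, for Gbp3 of its first window, 5′ to 3′ on the gene's strand, with the matched letters in capitals; overlapping ISRE matches in Gbp3 and in Irgm1 make 1 longer run each.
Gbp2 (chr3:142620493-142620662, plus strand): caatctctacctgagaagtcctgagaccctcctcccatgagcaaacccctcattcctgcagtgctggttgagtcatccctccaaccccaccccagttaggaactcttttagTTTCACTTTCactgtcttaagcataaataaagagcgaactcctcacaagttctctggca
Gbp3 (chr3:142559874-142560043, plus strand): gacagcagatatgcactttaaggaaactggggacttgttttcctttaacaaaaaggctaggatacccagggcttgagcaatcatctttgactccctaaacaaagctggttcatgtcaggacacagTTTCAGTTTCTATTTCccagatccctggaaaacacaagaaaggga
Gbp5 (chr3:142496764-142496933, plus strand): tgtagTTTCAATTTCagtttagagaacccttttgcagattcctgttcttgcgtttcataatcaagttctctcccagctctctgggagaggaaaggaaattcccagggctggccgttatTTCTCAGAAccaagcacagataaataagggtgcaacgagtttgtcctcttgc
Gbp7 (chr3:142530166-142530335, plus strand): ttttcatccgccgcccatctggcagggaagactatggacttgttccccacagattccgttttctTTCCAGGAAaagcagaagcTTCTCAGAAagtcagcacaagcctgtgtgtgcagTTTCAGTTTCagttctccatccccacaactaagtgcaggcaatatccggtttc
Irgm1 (chr11:48871421-48871590, minus strand): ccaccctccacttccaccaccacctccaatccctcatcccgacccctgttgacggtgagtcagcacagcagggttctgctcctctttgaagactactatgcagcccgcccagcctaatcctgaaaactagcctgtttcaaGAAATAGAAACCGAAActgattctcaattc
Irgm2 (chr11:58214807-58214976, plus strand): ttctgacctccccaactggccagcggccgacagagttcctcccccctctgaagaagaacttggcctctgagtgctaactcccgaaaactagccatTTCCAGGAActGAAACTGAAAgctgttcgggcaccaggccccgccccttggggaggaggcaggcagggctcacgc
Igtp (chr11:58199386-58199555, plus strand): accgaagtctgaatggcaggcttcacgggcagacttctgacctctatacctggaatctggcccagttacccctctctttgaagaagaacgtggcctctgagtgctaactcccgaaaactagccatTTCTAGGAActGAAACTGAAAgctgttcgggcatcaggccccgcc
Tgtp1 (chr11:48992247-48992416, minus strand): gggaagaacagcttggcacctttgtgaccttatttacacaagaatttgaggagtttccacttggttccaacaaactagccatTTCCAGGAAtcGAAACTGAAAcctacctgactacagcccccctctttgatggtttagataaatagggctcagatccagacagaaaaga

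In Irgm2, Igtp and Tgtp1 the GAS is followed after 2 bases by the ISRE on the same strand. That joined run, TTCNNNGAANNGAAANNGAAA, was looked for after these windows had been seen. It occurred in 5 of the 32851 windows (0.0152%), those of Igtp, Irgm2, Tgtp1, Tgtp2 and Gm12185, and all 5 genes are IRGs on chromosome 11. These genes are close copies of one another, so the 5 windows are not independent. In the GBP windows the run was not found: the letters stood apart in Gbp5 and Gbp7, and Gbp2 and Gbp3 held the ISRE without a GAS. A match of letters is a description of the window and not a measured binding site.

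**Figure D1:**
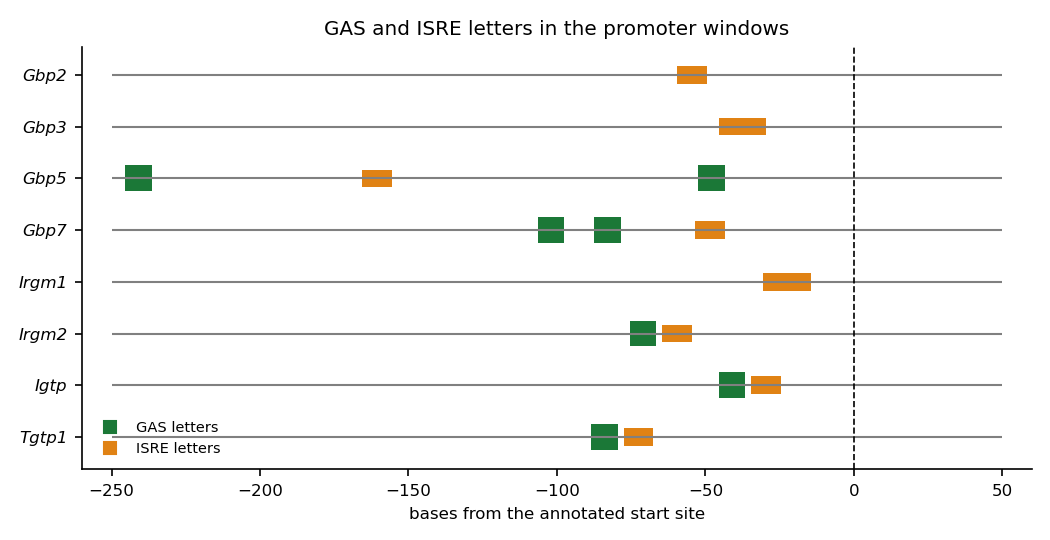
Positions of GAS letters (green) and ISRE letters (orange) in the promoter windows of the 8 genes that have one, in bases from the annotated start site (dashed line). The 8 windows drawn, for Gbp3 its first, hold ISRE letters, and in Irgm2, Igtp and Tgtp1 a GAS lies directly before the ISRE.

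Values per library are normalised reads, the read count of a gene divided by the library's size factor, given for libraries 1 to 4 of each group. Irgm1, the regulator whose loss is known to leave mice open to intracellular infection, had 1425, 1036, 1554 and 1289.5 in KO ethanol livers, against 598, 460.2, 567 and 350.1 in WT ethanol livers. On control diet it had 2052, 2189, 1675 and 2204 in KO livers and 552, 595, 672 and 715 in WT livers. Every KO library stood above every WT library, whatever the diet. Irgm2 had 1275, 743, 1227 and 804 in KO ethanol livers and 437, 247, 402 and 293 in WT ethanol livers. On control diet it had 1198, 1486, 1191 and 1453 in KO control livers and 465, 614, 552 and 501 in WT control livers. Again every KO library stood above every WT library. Igtp, the regulator found on lipid droplets, had 943, 601, 1016 and 734 in KO ethanol livers and 258, 165, 327 and 273 in WT ethanol livers. On control diet it had 1972, 1938, 1284 and 1536 in KO control livers and 253, 336, 347 and 338 in WT control livers. The KO ethanol libraries lay between the other groups, above both WT groups and below the KO control group.

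The 2 effectors differed widely in level. Iigp1, on chromosome 18 from 60376027 to 60392634, had 7332, 5897, 5091 and 4531 normalised reads in KO ethanol livers and 4849.9, 4541, 2192 and 3097 in WT ethanol livers, and these groups overlapped. On control diet it had 5394, 7726, 5783 and 9751 in KO livers against 3755, 3907, 3781 and 4391 in WT livers, which did not overlap. On ethanol, the KO values of Iigp1 lay above the WT values within libraries 1 and 2 and within libraries 3 and 4. Both ethanol groups split into these pairs over all genes, and the part of that split in the overlap was not tested. Tgtp1 had 28.5, 24.5, 45.1 and 39.5 in KO ethanol livers and 2.46, 0, 5.57 and 0.916 in WT ethanol livers, where the values rest on 2, 0, 6 and 1 reads, and a count of 0 allows up to 3 reads, or 3.496 normalised reads in that library. Its KO control values were 61.1, 81.4, 87.5 and 131, against 2.96, 3.98, 3.40 and 3.11 in WT control livers. In WT livers of either diet Tgtp1 was near the limit of detection. Of the windows of 75 bases, the read length, along its exons, 77.2% also occur in Tgtp2 or Gm12185, so its level depends on how the authors' counting treated shared reads, whose setting is not given in the sources used here.

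Among the GBPs of chromosome 3, Gbp2, which is known to lyse pathogen vacuoles, had 123, 110.3, 119 and 102 in KO ethanol livers and 45.5, 43.1, 30.7 and 42.2 in WT ethanol livers. On control diet it had 143, 205, 131 and 197 in KO control livers and 49.3, 48.7, 41.97 and 75.8 in WT control livers. Gbp3 had 399, 332, 612 and 384 in KO ethanol livers and 34.4, 10.5, 28.8 and 32.99 in WT ethanol livers. Its control-diet values were 769.8, 721, 546 and 811 in KO control livers and 47.3, 99.4, 71.5 and 67.5 in WT control livers. For both genes the KO and WT libraries formed separate ranges on each diet, with a far wider gap for Gbp3. Gbp5, known as a partner of the NLRP3 inflammasome, had 37.4, 36.8, 38.01 and 29.8 in KO ethanol livers and 15.97, 13.98, 12.1 and 8.25 in WT ethanol livers. Its control-diet values were 24.9, 41.7, 40.5 and 36.9 in KO control livers and 15.8, 20.9, 19.3 and 14.5 in WT control livers. Its KO control library 1 was close to the highest WT control library. Gbp7, which has been tied to assembly of the phagocyte oxidase, had 392, 340.2, 519 and 366 in KO ethanol livers and 193, 105, 173 and 177 in WT ethanol livers. Control-diet values of Gbp7 were 513, 525, 398 and 622 in KO control livers and 207, 189.9, 252 and 231 in WT control livers. Gbp6 of chromosome 5 had 88.5, 71.5, 86.3 and 71.2 in KO ethanol livers and 9.83, 6.99, 10.2 and 2.75 in WT ethanol livers. Control-diet values of Gbp6 were 150.2, 143, 83.8 and 178 in KO control livers and 17.7, 14.9, 13.6 and 18.7 in WT control livers. Of its windows of 75 bases 67.3% recur in other genes of its cluster, and 29.0% of its exons overlap Gm43302 on the same strand, so the Gbp6 level is uncertain in the same way as that of Tgtp1.

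**Figure D2:**
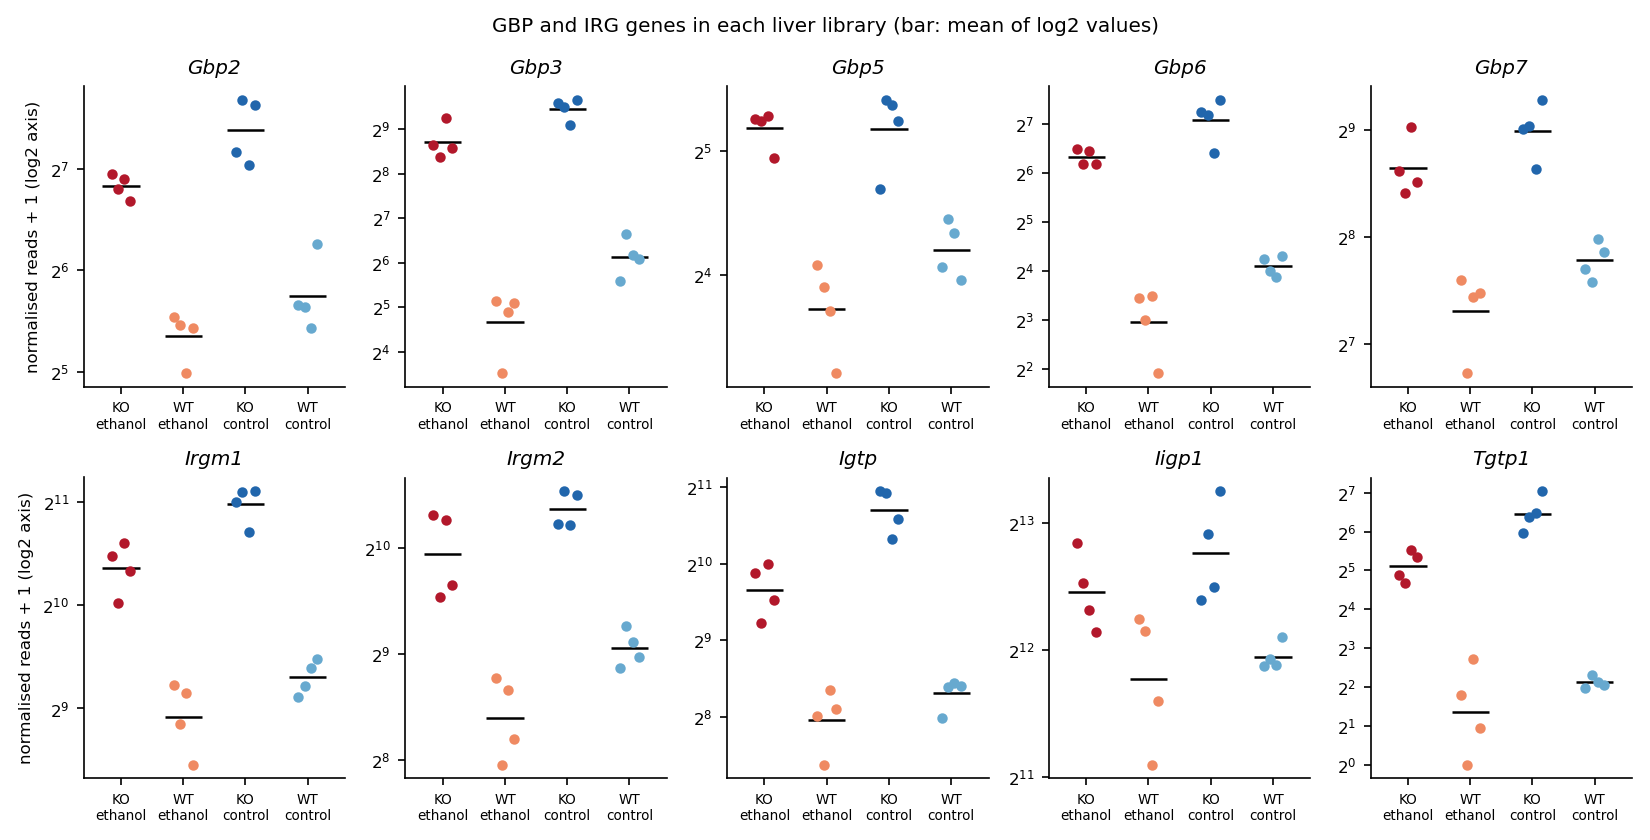
Normalised reads plus 1 (log2 axis) of each gene in each library, with 4 points a group and the mean of the log2 values as a bar. The KO points lie above the WT points on both diets in 9 panels, and in the Iigp1 panel the KO ethanol and WT ethanol points overlap.

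On control diet, where the question was what the knockout changes without ethanol, all 10 genes were higher in KO than in WT livers (limma adjusted p under 0.05, called here; 6.4% of the 13256 genes tested were called higher). The median log2 fold change of the 10 was 1.66, against -0.01 over all genes tested, and the groups did not overlap for any of the 10 (8.68% of all genes tested had KO control above WT control without overlap). Fold changes are on the scale of normalised reads plus 1, which understates those of low genes. The effector Tgtp1 rose 20.2-fold (log2 4.34 ± 0.44 SE, adjusted p = 5.3e-06), with means of 90.2 ± 29.2 in KO livers and 3.36 ± 0.449 in WT livers (SD, n = 4 each). Gbp3 rose 10.1-fold (log2 3.33 ± 0.31 SE, adjusted p = 1.76e-06) and Gbp6 7.88-fold (log2 2.98 ± 0.30 SE, adjusted p = 5.3e-06). The 3 regulators rose by 5.23-fold for Igtp (log2 2.39 ± 0.20 SE), 3.20-fold for Irgm1 (log2 1.68 ± 0.16 SE) and 2.49-fold for Irgm2 (log2 1.32 ± 0.19 SE), with adjusted p from 7.12e-07 to 0.000264. Gbp2, Gbp7 and Gbp5 rose 3.11-fold, 2.32-fold and 1.97-fold (adjusted p = 2.78e-05, 0.000417 and 0.0118). Iigp1, with the highest level of the 10, had the smallest fold change, 1.76 (log2 0.82 ± 0.23 SE, adjusted p = 0.0286). Its call was lost without KO control library 2 or 4 or without any 1 of the 4 WT control libraries (adjusted p from 0.0504 to 0.0903), and the other 9 calls held under every alternative tried.

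Under ethanol, 9 of the 10 genes were higher in KO than in WT livers (6.13% of all genes tested were called higher) and none was lower (3.75% were called lower), with a median log2 fold change of 1.51 against -0.02 over all genes tested. The groups did not overlap for the same 9 genes (8.36% of all genes tested). Gbp3 rose 16.6-fold (log2 4.05 ± 0.31 SE, adjusted p = 1.21e-07), with means of 432 ± 124 in KO livers and 26.7 ± 11.1 in WT livers (SD, n = 4 each). Tgtp1 rose 13.4-fold (log2 3.75 ± 0.44 SE, adjusted p = 2.18e-05; log2 2.67 with a pseudocount of 4 and 4.52 with 0.25) and Gbp6 10.3-fold (log2 3.36 ± 0.30 SE, adjusted p = 9.15e-07). The regulators Igtp, Irgm2 and Irgm1 rose 3.24-fold, 2.92-fold and 2.71-fold, with adjusted p from 1.3e-05 to 4e-05. The other GBPs rose 2.79-fold for Gbp2, 2.74-fold for Gbp5 and 2.52-fold for Gbp7 (adjusted p = 6.59e-05, 0.000496 and 0.000123). Iigp1 averaged 5713 ± 1217 in KO livers and 3670.0 ± 1247 in WT livers (SD, n = 4 each; log2 0.68 ± 0.23 SE, adjusted p = 0.0689), and it was called without WT ethanol library 1 (adjusted p = 0.0388) and by DESeq2 (adjusted p = 0.0460). The same 9 calls held without KO ethanol libraries 1 and 4. The control-diet and ethanol comparisons share no library.

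**Figure D3:**
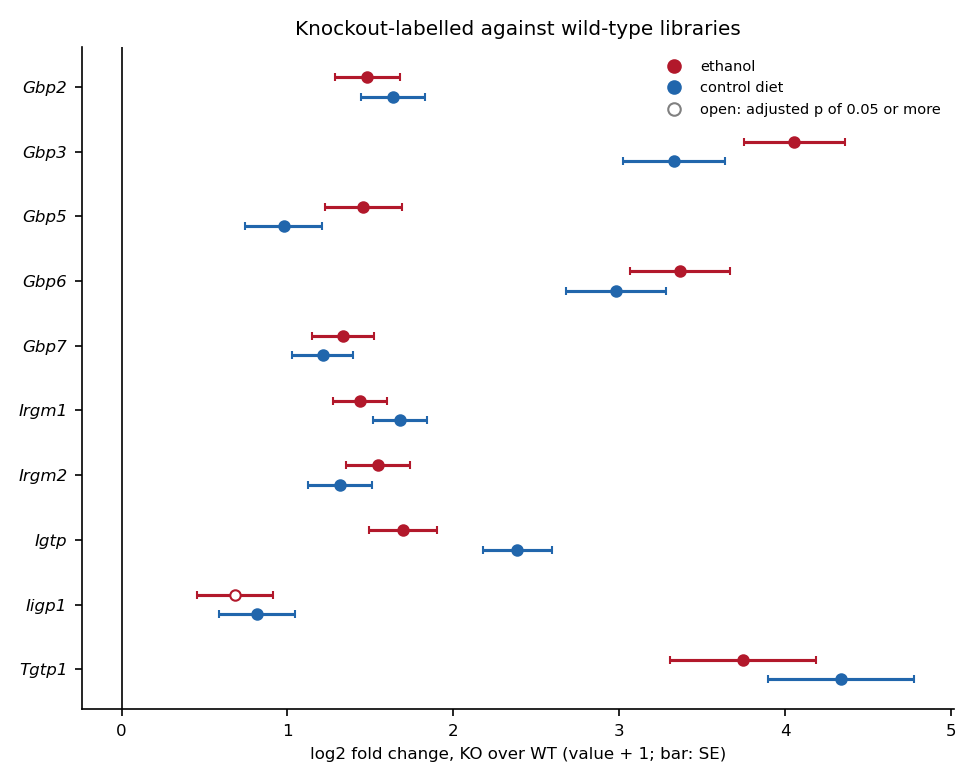
Log2 fold change of KO over WT for each gene on ethanol (red) and on control diet (blue), with the standard error of the limma fit as a bar and an open point where the adjusted p is 0.05 or more. Every point is above 0, from 0.68 for Iigp1 on ethanol to 4.34 for Tgtp1 on control diet.

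Macrophages and lymphocytes are known to express GBPs and IRGs on interferon, and markers of these cell types were measured in the same libraries. The 13 Kupffer cell and macrophage markers summed to 6532 to 8316 normalised reads in KO ethanol livers and 1209 to 1792 in WT ethanol livers, and to 7568 to 12010 in KO control livers and 3224 to 7312 in WT control livers. Of these 13 genes 13 were called higher in KO livers on ethanol and 8 on control diet, none was called lower, and none was at 0 in every library of a group. Over all genes tested 6.13% were called higher on ethanol and 6.4% on control diet. Called lower were 3.75% on ethanol and 695 of the 13256 genes on control diet. The 18 T and NK cell markers summed to 94.0 to 119.6 in KO ethanol livers and 28.0 to 45.8 in WT ethanol livers, and to 147 to 362 in KO control livers and 63.5 to 124.3 in WT control livers. Of the 4 that passed the filter, 1 was called higher in KO livers on ethanol and 2 on control diet, while Cd4 had a log2 fold change of -0.84 on control diet (adjusted p = 0.287). Ifng was at 0 throughout the KO ethanol and WT control groups, and Ncr1 was at 0 throughout the WT ethanol group. Of the 8 monocyte-derived cell markers tested 6 were called higher in KO livers on ethanol and 4 on control diet. On ethanol these 6 rose from 4.42-fold (Ccr2) to 10.9-fold (Gpnmb), each without overlap between the KO and WT groups. The sums of all 9 listed markers did overlap, with 748 to 1088 in KO ethanol and 504 to 865 in WT ethanol livers. On control diet the sums were 519 to 1202 in KO control and 622 to 920 in WT control livers. These sums also hold Spp1 and Cd9, which were not called on ethanol (log2 0.44 and -0.06). The part of single genes in the overlap of the sums was not tested. The 5 B cell markers summed to 40.3 to 58.7 in KO ethanol and 11.9 to 27.0 in WT ethanol livers, and to 58.0 to 161 in KO control and 49.8 to 424 in WT control livers. Only Ighm of them passed the filter, and limma did not call it (log2 1.44 on ethanol, adjusted p = 0.168, and -0.20 on control diet, adjusted p = 0.884). Hepatocyte markers were present in every library, and of the 11 tested 2 were called lower in KO livers on ethanol and 3 on control diet. Of the 8 endothelial markers limma and edgeR called none by genotype on either diet and DESeq2 called 1 higher on control diet, while 2 had an unadjusted limma p under 0.05 on each diet. In bulk tissue more cells of a type and more RNA per cell cannot be told apart, and the part of these cells in the GBP and IRG differences was not tested.

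After ethanol, against control diet, 3 of the 10 genes were lower in KO livers and none was higher (9.01% of all genes tested were called lower and 10.2% higher), with a median log2 fold change of -0.58 against -0.01 over all genes tested. Igtp fell to 824 ± 191 in KO ethanol livers, against 1682 ± 331 in KO control livers (SD, n = 4 each; log2 -1.04 ± 0.20 SE, adjusted p = 0.00247). Irgm1 fell to 1326 ± 222 in KO ethanol livers, against 2030.0 ± 246 in KO control livers (log2 -0.62 ± 0.16 SE, adjusted p = 0.0128). Tgtp1 fell to 34.4 ± 9.54 in KO ethanol livers, against 90.2 ± 29.2 in KO control livers (log2 -1.35 ± 0.44 SE, adjusted p = 0.0402). For these 3 genes and for Gbp2 every KO ethanol library was below every KO control library (11.3% of all genes tested). Gbp2, Gbp3 and Gbp6, with log2 -0.55 ± 0.19, -0.74 ± 0.31 and -0.75 ± 0.30 (SE), were not called by limma (adjusted p = 0.0574, 0.099 and 0.0892); edgeR and DESeq2 on the recovered reads called all of them, 6 genes in all. Gbp5 gave a log2 estimate of 0.00 ± 0.23 (SE, adjusted p = 0.998), with -0.01 by edgeR and -0.02 by DESeq2. Without KO ethanol libraries 1 and 4 Irgm1 was not called at a similar fold change (log2 -0.67, adjusted p = 0.0643), which left Igtp alone called. Tgtp1 was lost there too (log2 -1.36, adjusted p = 0.166) and without any 1 of KO ethanol libraries 1, 2 and 4 or KO control libraries 2, 3 and 4 (adjusted p from 0.0615 to 0.111), while Gbp2 and Gbp6 were gained without KO control library 3 (adjusted p = 0.0282 and 0.0298).

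In WT livers 3 genes were also lower after ethanol than on control diet and none was higher, where 19% of all genes tested were called lower and 18.9% higher, so that 3 of 10 is not far from the background. Gbp3 fell to 26.7 ± 11.1 in WT ethanol livers, against 71.4 ± 21.4 in WT control livers (SD, n = 4 each; log2 -1.47 ± 0.31 SE, adjusted p = 0.00139). Gbp6 fell to 7.45 ± 3.45 in WT ethanol livers, against 16.2 ± 2.38 in WT control livers (log2 -1.14 ± 0.30 SE, adjusted p = 0.00706). Irgm2 fell to 345 ± 89.6 in WT ethanol livers, against 533 ± 64.7 in WT control livers (log2 -0.66 ± 0.19 SE, adjusted p = 0.0129), and this call was lost without WT ethanol library 2 (adjusted p = 0.0513). These groups did not overlap for the 3 genes (17.4% of all genes tested). The median log2 fold change of the 10 was -0.47, and all 10 estimates were below 0. Gbp7 and Irgm1, with log2 -0.47 ± 0.19 and -0.38 ± 0.16 (SE, adjusted p = 0.055 and 0.0716), were called without WT ethanol library 1 (adjusted p = 0.0363 and 0.0348), and Irgm1 and Tgtp1 without WT ethanol library 3 (adjusted p = 0.0440 and 0.0204). Over the same change of diet, 11 of the 13 Kupffer cell and macrophage markers were called lower in WT livers and 2 of the 13 in KO livers, beside 19% and 9.01% of all genes tested. Their part in these differences was not tested.

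The fall with ethanol was compared between the genotypes by its own test. None of the 10 genes was called for a difference of the ethanol effects, KO minus WT (0.347% of all genes tested were called). The estimates ran from -0.69 ± 0.29 (SE) for Igtp to 0.72 ± 0.43 (SE) for Gbp3, with adjusted p from 0.315 to 0.890. One gene, Igtp, had an unadjusted p under 0.05 (0.0290), and neither edgeR nor DESeq2 called any of the 10. With standard errors of 0.23 to 0.62 on the log2 scale, the calls of Igtp, Irgm1 and Tgtp1 in KO livers and of Gbp3, Gbp6 and Irgm2 in WT livers are not shown to differ between the genotypes.

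**Figure D4:**
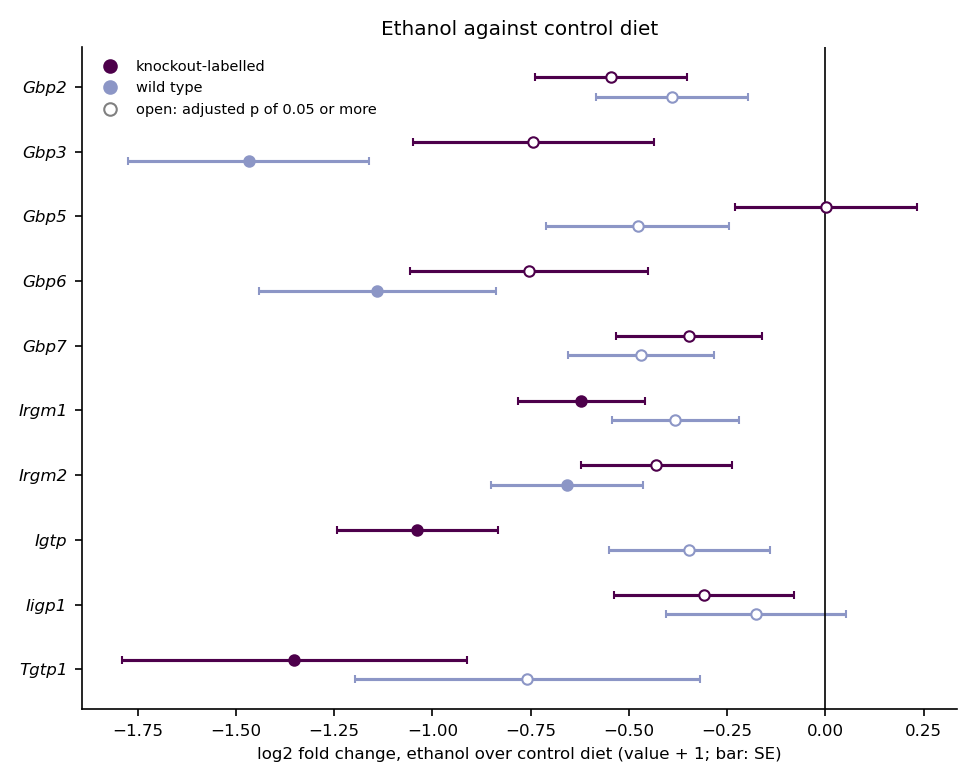
Log2 fold change of ethanol over control diet for each gene in KO livers (dark purple) and WT livers (pale), with the standard error of the limma fit as a bar and an open point where the adjusted p is 0.05 or more. The called genes in KO livers are Irgm1, Igtp and Tgtp1 and those in WT livers are Gbp3, Gbp6 and Irgm2, and apart from Gbp5 in KO livers at 0.00 every point is below 0.

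Per kilobase of exon, which allows levels of different genes to be compared, the mean levels of the IRGs apart from Tgtp1 stood above those of the GBPs. In the KO ethanol group Irgm1 and Gbp3 overlapped between libraries. Iigp1 led in each group, with 981 ± 209 normalised reads per kb in KO ethanol, 630.2 ± 214 in WT ethanol, 1230.0 ± 344 in KO control and 679.8 ± 50.8 in WT control livers (SD, n = 4 each). The regulators followed in the order Igtp, Irgm2 and Irgm1 in all 4 groups. In the KO ethanol group these were 407 ± 94.3, 274 ± 75.3 and 228 ± 38.1 per kb, and neighbours in that order overlapped between libraries. In the KO control group Igtp reached 832 ± 164 per kb and overlapped Iigp1, which it did in no other group. Gbp3 changed its place: it came next after Irgm1 in both KO groups, at 132 ± 37.9 per kb on ethanol and 218 ± 35.7 on control diet, and stood below Gbp7 in both WT groups, at 8.17 ± 3.38 per kb on ethanol and 21.9 ± 6.57 on control diet. Gbp2 had 45.1 ± 3.69 per kb in KO ethanol and 16.04 ± 2.63 in WT ethanol livers. The lowest levels per kb were those of Gbp5, Gbp6 and Tgtp1, with Gbp5 at 5.35 ± 0.574 in KO ethanol and 1.89 ± 0.496 in WT ethanol livers. The places of Tgtp1 and Gbp6 in this order are uncertain, since 77.2% and 67.3% of their windows of 75 bases recur in other genes. That holds for the place of Tgtp1 below the other IRGs too. Iigp1 made up 37.4% to 52.7% of the summed level per kb of the 10 genes in the KO ethanol libraries and 47.0% to 74.3% in the WT ethanol ones, and 30.8% to 45.0% in the KO control libraries against 55.2% to 60.3% in the WT control ones. The shares overlapped between the genotypes on ethanol and not on control diet.

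Within a group the libraries were not equal. KO ethanol library 3 held the highest value of its group for 6 of the 10 genes and KO ethanol library 2 the lowest for 6. WT ethanol library 1 was highest in its group for 7 genes. KO control library 4 was highest for 6 and KO control library 3 lowest for 7, and WT control library 1 was lowest for 6. Each library's mean deviation of the 10 genes from the group mean ran from -0.35 in WT ethanol library 2 to 0.34 in WT ethanol library 1 (log2). Over the 16 libraries, a gene's deviations correlated with that mean deviation at Pearson r = 0.91 for Irgm2 and 0.82 for Irgm1, and at 0.35, 0.32 and 0.23 for Gbp5, Gbp2 and Iigp1, which enter the mean themselves. All genes of a library share its size factor, and these r are given as descriptions. Outside the family the 5 genes whose deviations were most like the mean were Trim30a (r = 0.94), Hhip (0.86), Trim30d (0.84), 4930503L19Rik (0.83) and Parp9 (0.83), all over 16 libraries and taken as the highest of all genes tested.

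**Figure D5:**
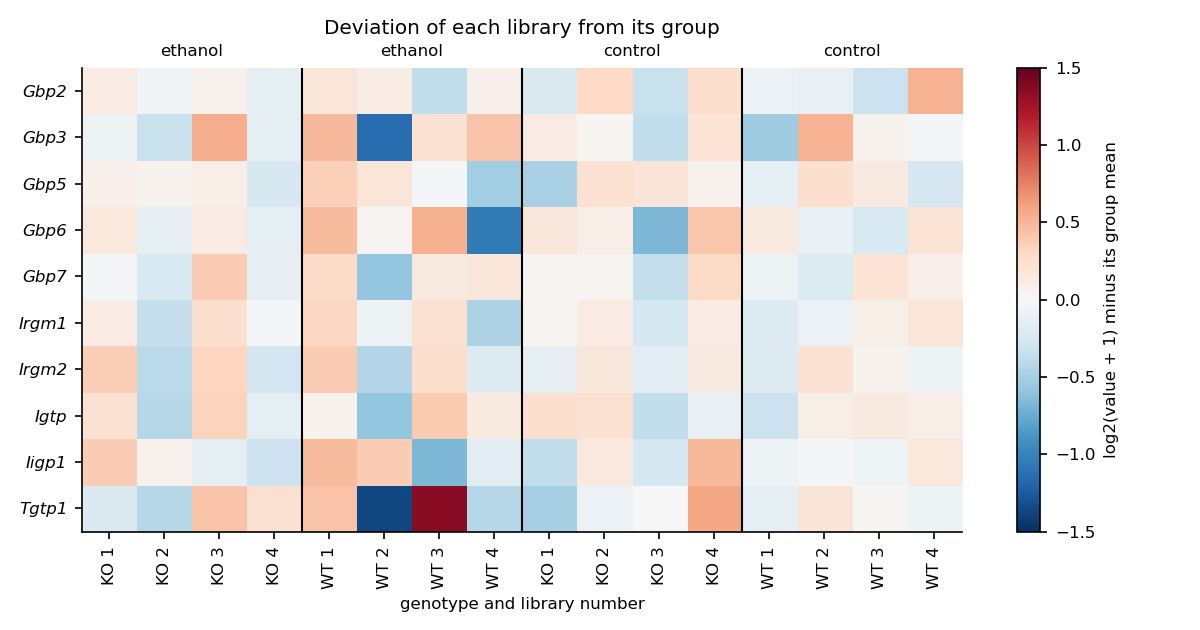
Deviation of log2(normalised reads + 1) from the group mean, with the 10 genes as rows and the 16 libraries as columns, in groups of 4. The widest deviations are those of Tgtp1 in the WT ethanol group, where it had 0 to 6 reads, and the Iigp1 row departs from the rows of the regulators in several libraries.

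The rest of the family was examined by a list of 24 further GBP, IRG and GVIN genes, of which 21 were in the table and 17 passed the filter. On ethanol 12 of the 17 were called higher in KO livers and none lower, where 6.13% of all genes tested were called higher. On control diet 11 were called higher and none lower, where 6.4% of all genes tested were called higher. On ethanol the call of Gbp11 was lost in 7 alternatives (adjusted p from 0.0544 to 0.162), among them without KO ethanol library 1 or 3 or WT ethanol library 2. Gbp4, Gbp9 and Gm4070 each lost theirs when only a pair of libraries a group was kept (adjusted p = 0.123, 0.0566 and 0.0868). On control diet the call of Tgtp2 was lost in 7 alternatives (adjusted p from 0.0583 to 0.0955), among them without KO control library 2 or 4 or WT control library 1, 2 or 3. Gbp10 had 51.1, 52.1, 33.3 and 48.1 normalised reads in KO ethanol livers and 1.23, 2.33, 4.64 and 1.83 in WT ethanol livers. Its control-diet values were 144, 196, 123 and 291 in KO control livers and 13.8, 14.9, 10.2 and 14.5 in WT control livers. That is 14.1-fold on ethanol (adjusted p = 2.12e-07) and 12.6-fold on control diet (adjusted p = 4.86e-07). The WT ethanol values of Gbp10 rest on 1, 2, 5 and 2 reads, so its fold change on ethanol depends on the 1 added to each value. Gm12250, known as Irgb10, an IRG effector that acts with GBPs on bacteria, had 58.03, 38.8, 75.2 and 36.6 in KO ethanol livers and 4.91, 1.17, 10.2 and 6.42 in WT ethanol livers. Its control-diet values were 228, 208, 110.5 and 204 in KO control livers and 12.8, 19.9, 17.01 and 14.5 in WT control livers. It rose 8.92-fold on ethanol (adjusted p = 4.31e-05) and 10.8-fold on control diet (adjusted p = 2.13e-05), with 4, 1, 11 and 7 reads in WT ethanol livers. Gvin1, a very large inducible GTPase, rose 7.68-fold on ethanol and 9.19-fold on control diet (adjusted p = 3.18e-06 and 1.72e-06). Many of these genes are close copies of each other, so single members are uncertain.

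The 3 IRG neighbours of Iigp1 on chromosome 18 were not called for genotype on either diet. Gm4951 (Ifgga2) had 1503, 922, 946 and 790.1 in KO ethanol livers and 853, 811, 683 and 915 in WT ethanol livers, and 1390.4, 1560.4, 1097 and 1391 in KO control livers against 1534, 1526, 1625 and 1622 in WT control livers (log2 0.31 ± 0.16 SE on ethanol, adjusted p = 0.236, and -0.22 ± 0.16 SE on control diet, adjusted p = 0.405). Its KO and WT ranges overlapped on both diets. F830016B08Rik (Ifgga4) gave log2 estimates of 0.37 ± 0.22 (SE) on ethanol and -0.69 ± 0.22 (SE) on control diet (adjusted p = 0.335 and 0.0541); on control diet it was called lower in KO livers without KO control library 4 (log2 -0.82, adjusted p = 0.0411) and by DESeq2 (log2 -0.68, adjusted p = 0.0278). Gm4841 (Ifgga3) was the third of them. Both Gm4951 and F830016B08Rik fell with ethanol in WT livers, to 815 ± 98.1 in WT ethanol livers against 1577 ± 54.3 in WT control livers for Gm4951 (SD, n = 4 each; adjusted p = 0.000219) and to 170.2 ± 33.4 against 347 ± 73.8 for F830016B08Rik (adjusted p = 0.00203). In all, 8 of the 17 further family genes were called lower with ethanol in WT livers and 1, Irgq, higher, beside 19% and 18.9% of all genes tested. In KO livers 3 were called lower, Gbp8, Gbp10 and Gm12250, beside 9.01% of all genes tested. The call of Gbp8 in KO livers was lost without any 1 of the 4 KO ethanol libraries or KO control library 1 or 4 (adjusted p from 0.0514 to 0.113). Leaving out KO ethanol libraries 1 and 4 together ended it as well (adjusted p = 0.200), and ended that of Gm12250 (adjusted p = 0.0510). The call of Gbp2b in WT livers, 1 of the 8, was lost without WT ethanol library 1, 2 or 4 or WT control library 1, 2 or 4 (adjusted p from 0.0638 to 0.155) and by edgeR (adjusted p = 0.0712).

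Of the pathway that induces these genes, the ligands were barely seen: of 20 interferon genes listed 3 were in the table and none passed the filter. Ifng, the gene of interferon gamma, had 0 reads in all KO ethanol and all WT control libraries, 1 read in each of 2 WT ethanol libraries, and 2 and 1 reads in 2 KO control libraries, where a count of 0 allows up to 3 reads a library. Ifnb1, the gene of interferon beta, had 1, 0, 4 and 1 reads in KO ethanol and 1, 0, 3 and 0 in KO control livers, against 0 in all 8 WT libraries. Ifnk, of interferon kappa, had 0 to 4 reads over the 16 libraries. Neither passed the filter. Of 8 receptor and JAK kinase genes tested 1 was called higher in KO livers on ethanol, Tyk2 (log2 0.58 ± 0.13 SE, adjusted p = 0.00717), which was lost without KO ethanol libraries 1 and 4 (adjusted p = 0.0585), and on control diet none of the 3 tools called one higher, with 4 of the 8 at an unadjusted limma p under 0.05. On control diet 1 was called lower, Jak2 (log2 -0.34 ± 0.10 SE, adjusted p = 0.0381), a call lost without any 1 of 7 of the 8 libraries compared (adjusted p from 0.0587 to 0.0973). Of 12 transcription factors 5 were called higher in KO livers on each diet, with 1 lower on ethanol and none lower on control diet. Over all genes tested 6.13% were called higher and 3.75% lower on ethanol, and 6.4% higher on control diet. Irf7, the amplifier of type I interferon, rose 17.2-fold on ethanol and 8.91-fold on control diet (adjusted p = 3.98e-09 and 8.25e-08), and Irf9 rose 2.58-fold and 1.75-fold (adjusted p = 3.52e-06 and 0.0011). Irf1, through which interferon gamma is known to induce many GBPs, had 402, 233, 491 and 359 in KO ethanol livers and 173, 213, 333 and 254 in WT ethanol livers. Control-diet values of Irf1 were 637, 545, 505 and 531 in KO control livers and 424, 394, 365 and 361 in WT control livers. It was not called (log2 0.60 ± 0.20 SE on ethanol, adjusted p = 0.068, and 0.52 ± 0.20 SE on control diet, adjusted p = 0.103), although the ranges did not overlap on control diet. On control diet it was called when only the groups compared were fitted (adjusted p = 0.0122). On ethanol it was called without KO ethanol library 2 or WT ethanol library 3 (adjusted p = 0.00852 and 0.0158) and by DESeq2 (adjusted p = 0.0320).

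Other targets of interferon were called in different shares, beside 6.13% of all genes tested called higher on ethanol and 6.4% on control diet. Of 18 further interferon gamma response genes tested, 13 were called higher in KO livers on ethanol and 14 on control diet, with medians of 1.45 and 1.15 (log2) and none lower. The ubiquitin-like modifier Ubd rose 44.3-fold on ethanol and 17.6-fold on control diet (adjusted p = 1.48e-08 and 5.63e-07), and the immunoproteasome subunit Psmb8 2.79-fold and 2.80-fold (adjusted p = 1.54e-07 and 2e-07). All 24 type I interferon response genes were called higher on both diets, with medians of 3.45 on ethanol and 2.94 on control diet, against 1.51 and 1.66 for the 10 GTPases. Usp18, which damps type I signalling, rose 9.73-fold and 8.94-fold (adjusted p = 7.25e-09 and 1.52e-08). Of the 10 negative regulators tested, 1 further gene was called higher on each diet, and it was not the same gene. On ethanol it was Ptpn6 (log2 0.63, adjusted p = 0.00297, against 0.15 and 0.477 on control diet). On control diet it was Socs1 (log2 2.26, adjusted p = 0.0240, against -0.05 and 0.977 on ethanol). Of the 18 type I genes with a promoter window 11 held the ISRE letters and 4 the GAS letters in at least 1 window, and of the 12 further interferon gamma genes with a window 2 held each. Of all 27025 genes with a window, 3.99% held the ISRE letters and 9.55% the GAS letters in at least 1 window.

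Among genes whose products work with GBPs and IRGs, those of the inflammasome list were called higher for 4 of 10 on each diet and lower for none. For comparison, 6.13% of all genes tested were called higher on ethanol and 6.4% on control diet. On ethanol the call of Nlrp3, the sensor of an inflammasome (log2 1.61, adjusted p = 0.0278), was lost without KO ethanol library 1, 2 or 4 or WT ethanol library 1 or 2 (adjusted p from 0.0576 to 0.0951). With ethanol libraries 3 and 4 alone it was also lost (log2 0.96, adjusted p = 0.491), as was that of the DNA sensor Aim2 (log2 0.68, adjusted p = 0.517, against 1.46 and 0.0131 with all libraries). Gsdmd, the pore former of pyroptosis, rose 1.58-fold on ethanol and 1.41-fold on control diet (adjusted p = 0.000641 and 0.00681). Of 9 ubiquitin ligases and adaptors found at coated membranes, 3 were called higher on ethanol and 4 on control diet. Rnf213, a giant ligase, rose 3.47-fold and 2.64-fold (adjusted p = 6.66e-07 and 1.44e-05). By genotype limma and edgeR called none of the 10 genes of the LC3 conjugation machinery, which guides IRGs and GBPs to their target membranes, on either diet, and DESeq2 called 1 lower on ethanol. The estimates ran from -0.33 to 0.10 on ethanol and from -0.32 to 0.13 on control diet (log2), with an unadjusted limma p under 0.05 for 2 genes on ethanol and 0 on control diet. For the 9 prenyltransferase genes, whose enzymes lipidate some GBPs, none of the 3 tools made a call by genotype, with 1 gene at an unadjusted limma p under 0.05 on ethanol and 0 on control diet.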

How the data were processed

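RNA was sequenced as single reads of 75 bp. The submitters' processing notes name HISAT2, HTSeq, edgeR and GRCm38. The handling of strand and of shared reads is not given in the sources used here, nor is the annotation release. In the deposited table each value is a signal, a gene's read count after the authors' division by the library's size factor (0.814 to 1.2628). Dividing by each library's smallest step gave whole reads for 100% of values (within 0.01). GENCODE gave a symbol for 27233 of the 27288 identifiers; no columns were left out. Libraries of a group differed beyond sampling noise (mean chi-square per gene 11.1 to 121), and each was counted as 1 sample. This spread does not show that each library came from its own mouse. In both ethanol groups, libraries 1 and 2 were closer to each other than to libraries 3 and 4, and likewise 3 and 4. In WT ethanol the pairs gave 14.9 and 38.4, and comparisons across pairs 70.7 to 121. In KO ethanol the pairs gave 22.2 and 11.5, and comparisons across pairs 30.7 to 35.8.

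Limma 3.58.1 (R 4.3.3) was fitted to log2(value + 1) of the 13256 genes with a mean of at least 10, in 1 fit of 4 group means with a variance trend. A call is an adjusted p under 0.05 (Benjamini-Hochberg, all genes tested), and every adjusted p without another tool's name is limma's. The fit was tested on simulated data. The edgeR 4.0.16 quasi-likelihood test and DESeq2 1.42.0 ran on the recovered reads; further alternatives were other pseudocounts, filters, TMM factors, no trend, the compared groups alone, a replicate block, libraries left out singly, and the ethanol groups without libraries that stand apart. Lengths per kb are GENCODE exon unions.

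The 10 genes and all lists were chosen with earlier results of these data known, so the counts are no independent support. Named were the 10 genes, family genes, up to 4 called genes with the smallest p per pathway list (not each is printed), Ifng, Irf1 and Irf7, and the 5 other genes whose deviations from the group means correlated best with the members' mean deviation. Same-numbered libraries deviated together between the ethanol groups (r 0.102 to 0.246 for all 4 pairs) and in no other comparison, a reading from the data, since the meaning of the numbers is not labelled. Intervals of counts of 0 cover counting error only. Protein sequences were not used here, and 1 further gene of the rule is not reported here.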

Additional observations from a re-analysis of the deposited data

Results flagged for a closer look

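In each group of 4 libraries, a value was picked out when the gap between the lowest or highest library and its nearest neighbour took a larger share of the group's range than Dixon's 95% critical value; 8 values of 124 groups examined met this, and chance gives about 1 in 20 groups. Among the 10 GTPases these were Gbp5 in KO ethanol library 4, with 29.8 normalised reads, below the other 3 libraries, and Igtp in WT control library 1, with 253, below the others. Of the further family genes, Gbp4 and Gbp9 had single high values in WT control library 2, at 65.6 and 72.6. Tgtp2 had single high values in WT ethanol library 3 (2.79, which is 3 reads) and in WT control library 4 (13.5). Gm4070 stood apart in WT ethanol library 2 at 4.66, and Irf7 in KO ethanol library 2 at 1608, below its group. No explanation was tested for any of them.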

How the results depend on the processing

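Over the alternatives, 960 values of the 10 genes kept their direction and their side of the threshold, 20 passed it only under the alternative, 17 no longer passed it and 13 changed sign. The counts of genes called that moved by more than 1.5 times were as follows. For the genotype on ethanol, 1310 became 489 without KO ethanol libraries 1 and 4, and 453 with libraries 3 and 4 alone, and 845 to 1688 over single libraries left out (845 without KO ethanol library 3, 862 without WT ethanol library 1). For the genotype on control diet, 1544 became 923 to 1352 over single libraries left out, with 923 without WT control library 4. For ethanol in KO livers, 2543 became 1034 without KO ethanol libraries 1 and 4, and the 3 members called became 1 there, 6 with only the groups compared, and 6 by edgeR and by DESeq2. The 3 members called for ethanol in WT livers became 2 to 5 without single libraries, 5 without WT ethanol library 1 or 3. For the difference of the ethanol effects, 46 genes became 16 without the trend, 24 with the replicate block, 30 by edgeR, 265 by DESeq2, 0 by limma without KO ethanol libraries 1 and 4 and 8 to 215 over single libraries left out. The replicate block fits 1 effect per library number over all 4 groups, so it does not model a pairing of the ethanol groups alone. This block changed no call of the 10 genes between the genotypes on ethanol, where same-numbered libraries deviated together. Elsewhere it added Gbp2 for ethanol in KO livers (adjusted p = 0.0482) and Gbp7 in WT livers (adjusted p = 0.0471). Signs turned for values near 0: Gbp5 for ethanol in KO livers was -0.00041 with a pseudocount of 4, -0.0022 with TMM factors, -0.015 by edgeR, -0.021 by DESeq2 and -0.16 to 0.080 over single libraries left out. Over single libraries left out, Iigp1 for ethanol in WT livers ranged from -0.33 to 0.049, and the difference of the ethanol effects from -0.072 to 0.22 for Gbp7 and from -0.36 to 0.029 for Iigp1. The causes were not tested. Tgtp1 for ethanol in KO livers was also lost with a pseudocount of 0.25 (adjusted p = 0.148) and with no filter (adjusted p = 0.0700). Depth limits Tgtp1, Gbp6, Gbp10, Gm12250 and Gvin1 in WT livers, where their values rest on few reads.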
